A study of Mus musculus with 24 samples.

Results

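The comparison described here set unstimulated Aim2-deficient CD4+ T cells against unstimulated wild type cells, and its members were the 6 libraries labelled 0 h, out of 24 libraries in the series. The 3 Aim2-/- libraries came from mice 1, 2 and 4, and the 3 WT libraries, of C57BL/6 genotype, came from mice 1, 3 and 4. All groups shared the purification of CD4+ T cells from the spleen, a magnetic negative selection that leaves these cells untouched and takes the other cell types away. The cells received no antibody to CD3 and CD28 at this time point. The allele is carried by every cell of the animal and not by T cells alone. The general methods of the study give the Aim2-/- mice as bred on the C57BL/6 background, cohoused with WT mice after weaning and matched for sex and age. Each mouse was sequenced again at 3, 6 and 24 h of stimulation. Those libraries entered the count filter, the scaling of the libraries and the estimate of the spread. Their own levels are given only for Aim2 and where later times are compared.

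AIM2 is a cytosolic sensor of double-stranded DNA that assembles an inflammasome with the adaptor ASC in myeloid cells. Its gene stands in a cluster of related Ifi200 genes. CD4+ T cells of a spleen are a mixture of naive cells, which keep quiescence genes such as Tcf7 high, of effector and memory cells, which carry chemokine receptors and lineage factors, and of regulatory T cells (Treg), which are marked by Foxp3 and hold many tumour necrosis factor receptors. The questions were which of these programmes differed between the genotypes before stimulation, how T cell genes behaved beside genes of B cells, myeloid cells and red cells, and what 1 WT library with a low level of Aim2 contributed.

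The 6 libraries held between 20400995 and 21169479 counts. Summed over 11 CD4 T cell markers (Cd4, the Cd3 chains, Lck, Cd28, Thy1, Cd5 and the T cell receptor constant genes), the Aim2-/- libraries reached 6546, 6731 and 6816 CPM (counts per 1e6 counts), and the WT libraries 6452, 6600.5 and 6632 CPM. The levels overlapped, and none of the 11 markers passed the test. Cd8a lay under 1 CPM in all 6 libraries, and Cd4 had 864.7, 1046 and 879.4 CPM in Aim2-/- and 897.7, 926.7 and 874.8 CPM in WT cells. A gene is described as called, or as having risen or fallen, when its adjusted p was under 0.05 in edgeR's quasi-likelihood test of Aim2-/- against WT at 0 h, and fold changes are log2 values of that fit, Aim2-/- minus WT. In these bulk samples, fewer cells of a type and less of its RNA per cell cannot be told apart.

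The library labelled WT 1 went against its label. Aim2 stood at 15.7, 20.1 and 19.001 CPM in Aim2-/- mice 1, 2 and 4, at 21.5 CPM in the library labelled WT 1, and at 75.0 and 67.5 CPM in the other WT libraries, 3 and 4. That library thus lay just above the highest Aim2-/- library and far under the other WT libraries. The low level was not confined to the unstimulated library of this mouse. At 3, 6 and 24 h Aim2 stood at 16.99, 11.48 and 5.57 CPM in WT 1. It stood at 50.67, 33.005 and 34.02 CPM in WT 3 and at 52.29, 32.52 and 38.65 CPM in WT 4. The highest Aim2-/- level at these times was 15.11, 11.38 and 7.15 CPM. The fold change of Aim2 at 0 h was -1.58 (SE 0.53, adjusted p 0.0794) with all mice and -1.96 (adjusted p 6.7e-07) without mouse WT 1. Mouse WT 1 was singled out for its low Aim2, so a stronger value without it follows from that choice and is no evidence of its own. Permuting the 6 CPM values at 0 h exactly, two-sided, gave p 0.1, the smallest that 3 mice against 3 can give. The labels were kept in every comparison, and each main count is also given without mouse WT 1, that is without its 4 libraries.

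The 14 tested members of the Ifi200 family divided into groups by their values in the WT libraries. Ifi213 fell (-5.83, SE 1.44, adjusted p 0.028) and was the only member called with all mice, with 0.242, 0.739 and 0.935 CPM in Aim2-/- cells, 1.00 CPM in WT 1 and 51.1 and 57.6 CPM in WT 3 and WT 4. Ifi209 had 34.2, 44.7 and 38.2 CPM in Aim2-/- cells against 62.5, 125 and 124.8 CPM in WT 1, 3 and 4. For Ifi206 and Ifi208 the library labelled WT 1 again stood next to the Aim2-/- libraries, at 4.90 and 11.002 CPM. The opposite order held for the 4 members that rose without mouse WT 1. Ifi203-ps, annotated as a pseudogene, had 3.24, 4.38 and 3.84 CPM in Aim2-/- cells and 5.80 CPM in WT 1, but 0 and 0.0507 CPM in WT 3 and WT 4. Ifi204 and Ifi211 behaved in the same way, with 23.9 and 10.5 CPM in WT 1. Ifi202b had 4.07, 1.38 and 1.62 CPM in Aim2-/- cells, 1.15 CPM in WT 1 and 0.0517 and 0 CPM in WT 3 and WT 4. Without mouse WT 1, 4 members of the family rose and 6 fell. These genes share sequence: of the 51-base words in the annotated transcripts, 51 bases being the read length, 72.4% in Ifi211, 33.2% in Ifi209 and 15.2% in Ifi213 also occur in another gene, but only 0.514% in Aim2, so single levels within the family are uncertain.

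**Figure D1:**
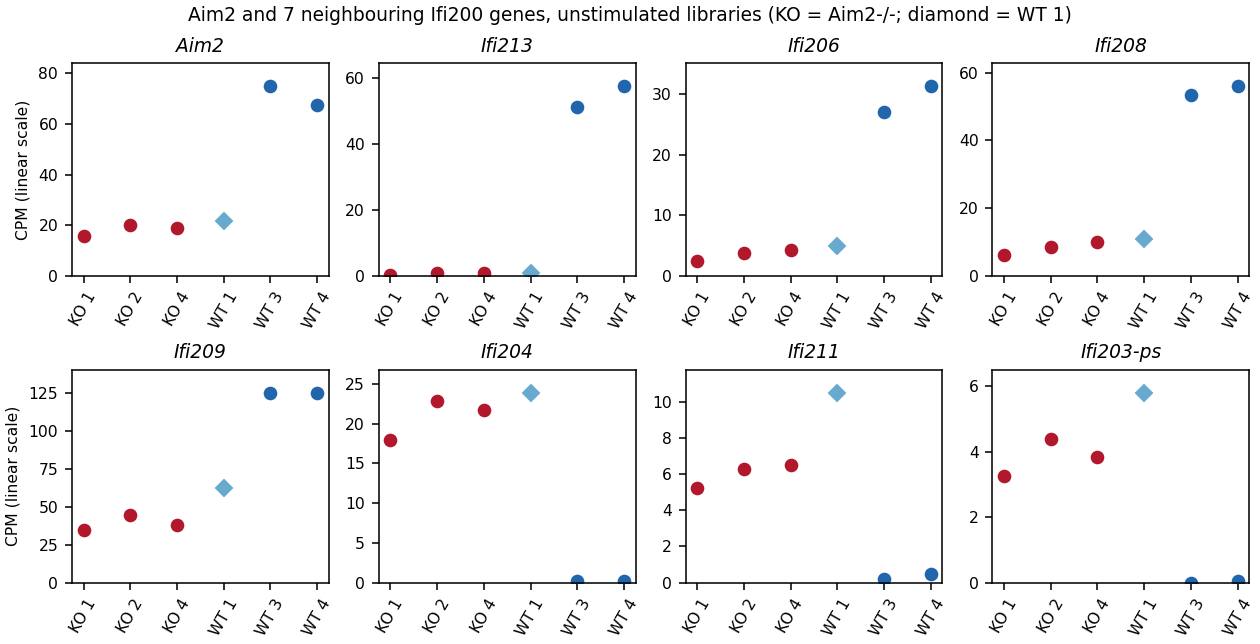
Level in CPM (linear vertical axes, starting at 0) of Aim2 and 7 neighbouring Ifi200 genes in each unstimulated library. Red circles are the 3 Aim2-/- mice, dark blue circles WT 3 and WT 4, and the light blue diamond the library labelled WT 1, which lies nearer to the Aim2-/- libraries than to WT 3 and WT 4 in all 8 panels.

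The pattern reached beyond the family. Within 10 Mb of Aim2 (GRCm38, chromosome 1, gene at chr1:173350879-173466040), 10 of 181 tested genes were called with all mice, or 5.52%, against 5.23% of all 15325 genes. Without mouse WT 1 it was 27 of 184, or 14.7%, against 5.77% of all genes, and 17 of the 27 did not belong to the Ifi200 family. Among these 17 were Slamf7, a receptor of natural killer and plasma cells, with 26.6, 20.4 and 23.4 CPM in Aim2-/- cells, 22.6 CPM in WT 1 and 8.99 and 13.03 CPM in WT 3 and WT 4, and Dusp23, a phosphatase, with 1.26, 1.48 and 1.72 CPM, 1.40 CPM, and 4.86 and 3.35 CPM in the same order. The library labelled WT 1 had no part in these 27 calls, and it lay nearer to the Aim2-/- mean than to the mean of WT 3 and WT 4 in 21 of them. Among the 17 outside the family it was 12, or 70.6%. Of the 877 genes called without mouse WT 1 further away or on another chromosome it was 417, or 47.5%. Slamf9, Fcer1a and Pou2f1 were exceptions in this region, in which WT 1 had the level of the other WT mice. Slamf9, a receptor of the SLAM family, had 27, 27 and 20 counts in the Aim2-/- libraries and 0 counts in all 3 WT libraries, and its level in Aim2-/- cells was at least 7.92-fold higher, against a floor of 3 counts per library.

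Across all genes, 497 of 15325 were higher in Aim2-/- cells (3.24%) and 305 lower (1.99%). The rises and falls differed in kind. Of the 497 rises, 70 were immunoglobulin genes, 51 stood on lists of other cell types, 23 on T cell lists alone, 1 (Eomes) on lists of both kinds, and 352 on no list. Of the 305 falls, none was an immunoglobulin gene or stood on a list of another cell type, 8 stood on T cell lists, 1 was a T cell receptor segment (Trav7n-4, at no more than 1.6 CPM in any library) and 296 were on no list. The median fold change was 1.64 among the rises and -0.46 among the falls. Leaving out mouse WT 1 gave 668 higher (4.27%) and 236 lower (1.51%), of which 316 and 160 were called with all mice as well. In a fit of the 6 unstimulated libraries alone, 317 of 13408 genes were called (2.36%), 271 higher (2.02%) and 46 lower (0.343%).

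The number of calls depended on single mice other than WT 1. It was 160 without Aim2-/- 1, 2139 without Aim2-/- 2, 125 without Aim2-/- 4, 30 without WT 3 and 37 without WT 4. The 17 genes called in all 6 of these fits, that is without each mouse in turn, were chosen after their values were seen. They comprised 9 immunoglobulin genes (Ighm, Ighg3, Ighv1-55, Ighv1-66, Ighv1-74, Ighv3-6, Igkv4-91, Igkv6-15 and Igkv6-17), 3 basophil genes (Fcer1a, Mcpt8 and Prss34), Slamf9, Spon1, and the falls Xpo1, Ugcg and Retreg1. No gene of a T cell list was among them.

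**Figure D2:**
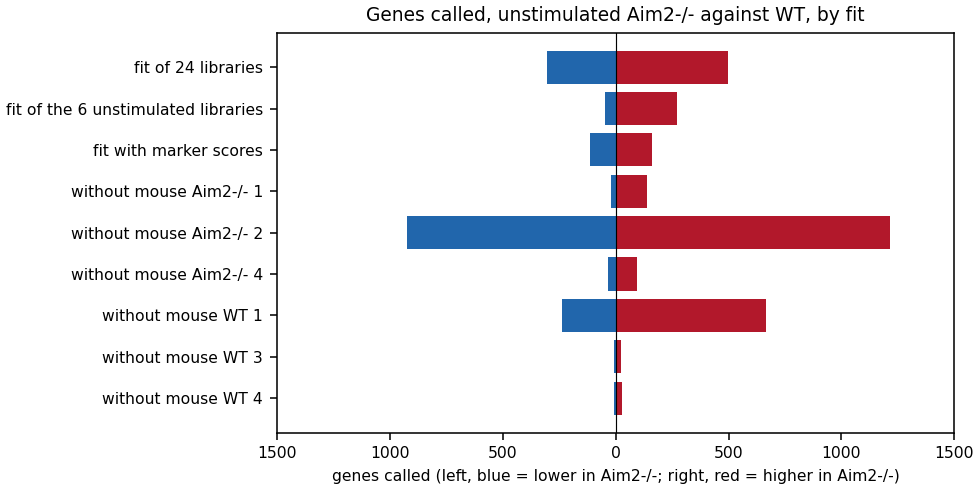
Genes with an adjusted p under 0.05 (horizontal axis, number of genes, linear) in the fit of all 24 libraries, in the fit of the 6 unstimulated libraries, with marker scores as terms, and without each mouse. Red bars to the right are genes higher and blue bars to the left genes lower in Aim2-/- cells; the total runs from 30 without WT 3 to 2139 without Aim2-/- 2.

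Immunoglobulin genes, which B cells and plasma cells transcribe and T cells do not, showed the largest rises. Of 188 tested, 70 rose and none fell, with 3.24% of all genes called higher, and 185 had a fitted value above 0. The annotation holds 430 such genes, of which 156 had 0 counts in all 6 libraries. A gene can pass the count filter through Aim2-/- libraries alone, here and on the lists of other cell types. Counts of direction are therefore partly set by the filter. The summed level of all 430 genes, to which no filter was applied, was 20653, 13396 and 17205 CPM in Aim2-/- mice 1, 2 and 4. It was 3716, 1303 and 1360 CPM in WT 1, 3 and 4. The groups did not overlap, and the ratio of the group means was 8.03, or 12.8 without WT 1, whose level was 2.79 times that of the other WT mice. Called members were 57 of 164 V segments, 7 J segments and 6 of 11 constant regions. When mouse WT 1 was left out, 98 of the same 188 genes were called, all higher, with 4.27% of all genes called higher. Among the 98 were 59 of the 70. The count of called immunoglobulin genes was 43 of 160 calls in all without Aim2-/- 1, 87 of 2139 without Aim2-/- 2 and 27 of 125 without Aim2-/- 4. It was 13 of 30 without WT 3 and 17 of 37 without WT 4.

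Ighm encodes the constant region of IgM and was among the most abundant. It had 6050.4, 4332 and 4895 CPM in Aim2-/- cells and 737.5, 556.4 and 340.9 CPM in WT cells (3.22, SE 0.42, adjusted p 0.0011). Ighg3, the constant region of IgG3, had 657.4, 564.05 and 663.1 CPM against 60.1, 32.4 and 119 CPM (3.16, SE 0.55, adjusted p 0.00514). Igkc, the constant region of the kappa light chain, had 6338, 3898 and 5216 CPM against 968.4, 363 and 367.1 CPM (3.19, SE 0.69, adjusted p 0.0161). WT 1 had the highest level of Igkc and of Ighm among WT mice, and no Aim2-/- library reached down to it. Ighd, the constant region of IgD, carried mainly by mature naive B cells, had 8.38, 2.02 and 2.90 CPM in Aim2-/- cells and 3.85, 2.95 and 2.54 CPM in WT cells, and the groups overlapped (adjusted p 0.602).

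Single V segments differed between mice of 1 group as well. Igkv4-91 had 390, 1247 and 532 counts in Aim2-/- mice 1, 2 and 4 and 1, 13 and 0 counts in WT 1, 3 and 4. Igkv12-98 had 58, 123 and 2339 counts in the Aim2-/- mice and 0, 11 and 8 counts in the WT mice, so that nearly all of its reads came from mouse Aim2-/- 4. Ighv3-6 was more even, with 48.6, 41.6 and 70.6 CPM against 7.55, 4.29 and 3.35 CPM (3.40, SE 0.48, adjusted p 0.00177). V segments have close relatives. Of the 51-base words of Ighv1-55, 37% occur in another annotated gene, against 4.87% for Igkv4-91 and 2.62% for Ighv3-6.

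Other B lineage genes rose in part. On the B cell list 7 of 24 tested genes rose and none fell, with Blnk, an adaptor of the B cell receptor, at 7.36, 3.99 and 4.09 CPM against 1.10, 0.620 and 0.659 CPM (2.69, SE 0.54, adjusted p 0.0114). Cd79a, a signalling chain of that receptor, had 10.3, 3.25 and 3.99 CPM against 1.75, 1.03 and 0.913 CPM (2.24, SE 0.52, adjusted p 0.0206). On the plasma cell list 6 of 12 rose, led by Mzb1, an endoplasmic reticulum protein of antibody-secreting cells (3.25, SE 0.64, adjusted p 0.00975), and the summed level was 1212, 764.2 and 1241 CPM in Aim2-/- cells and 491.04, 369.8 and 343.2 CPM in WT cells. Of all genes 3.24% were called higher with all mice. Without mouse WT 1 the counts were 5 of 24 and 7 of 12, with 4.27% of all genes called higher.

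Genes of granulocytes and other myeloid cells rose together. Over the monocyte and macrophage, dendritic cell, neutrophil, basophil and mast cell, and eosinophil lists, 31 of 100 tested genes rose and none fell, with 3.24% of all genes called higher, and without mouse WT 1 it was 23, with 4.27%. The count was 56 of 2139 calls in all without Aim2-/- 2, 9 of 125 without Aim2-/- 4, 5 of 30 without WT 3 and 3 of 37 without WT 4. The summed level was 2573, 1209 and 1589 CPM in Aim2-/- cells and 828.8, 718.3 and 680.7 CPM in WT cells. Ear1, Stfa2l1 and Vsig4 were at 0 counts in all 6 libraries.

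The basophil and mast cell list gave the highest count, 13 of 25, with 3.24% of all genes called higher. It was 11 without mouse WT 1, with 4.27% of all genes called higher. Basophils are rare blood granulocytes that bind IgE through the receptor whose alpha chain is Fcer1a and whose beta chain is Ms4a2. Prss34, a serine protease of basophils, had 52.8, 28.2 and 37.7 CPM in Aim2-/- cells and 3.85, 5.27 and 3.45 CPM in WT cells (3.24, SE 0.49, adjusted p 0.0024). Mcpt8, another protease of this cell type, had 30.02, 17.1 and 24.9 CPM against 3.45, 2.84 and 1.88 CPM (3.14, SE 0.51, adjusted p 0.00312). Fcer1a had 60, 33 and 38 counts against 2, 3 and 3 counts. Gata2, a transcription factor of basophils and mast cells, rose as well, with 32.8, 11.9 and 22.5 CPM against 5.40, 5.38 and 6.14 CPM (1.99, SE 0.44, adjusted p 0.0176). In each of these genes the 3 Aim2-/- libraries lay above the 3 WT libraries, and WT 1 lay with the other WT mice. Kit, the receptor that defines mast cells, had 46.5, 19.4 and 31.3 CPM against 20.9, 17.7 and 16.6 CPM and was not called (adjusted p 0.234).

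Because GATA factors bind the letters AGATAA, the 250 bases before the RefSeq start sites of the called basophil and mast cell genes were searched for AGATAA and its reverse complement TTATCT. Of the 13 called genes 11 had a RefSeq window, and 4 of these held the motif, as did 6 of the 20 tested list members with a window. Across all 27025 genes with a window 11.4% held it, and no test was made. The 4 windows follow in the direction of the gene, 5′ to 3′ and ending at the base before the start, with each motif in capitals. They are shown because they are the called genes that share the letters (RefSeq, GRCm38.p6), and 9 of the 13 called genes are not among them.
Prss34, chr17:25298144-25298393, plus strand: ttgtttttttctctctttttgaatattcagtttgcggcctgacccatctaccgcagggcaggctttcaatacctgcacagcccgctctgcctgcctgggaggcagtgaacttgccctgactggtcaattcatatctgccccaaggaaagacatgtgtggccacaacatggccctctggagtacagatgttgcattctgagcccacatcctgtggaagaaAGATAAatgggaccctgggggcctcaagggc
Cpa3, chr3:20242182-20242431, minus strand: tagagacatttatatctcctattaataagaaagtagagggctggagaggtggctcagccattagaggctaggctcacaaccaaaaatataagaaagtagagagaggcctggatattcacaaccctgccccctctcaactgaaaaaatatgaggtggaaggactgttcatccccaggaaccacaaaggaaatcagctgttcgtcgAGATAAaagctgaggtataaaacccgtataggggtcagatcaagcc
Ms4a2, chr19:11623720-11623969, minus strand: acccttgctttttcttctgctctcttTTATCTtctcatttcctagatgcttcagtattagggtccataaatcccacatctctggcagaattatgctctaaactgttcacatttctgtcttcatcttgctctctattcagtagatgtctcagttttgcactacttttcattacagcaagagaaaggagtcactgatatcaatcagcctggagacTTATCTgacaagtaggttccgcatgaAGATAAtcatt
Fcer1a, chr1:173227230-173227479, minus strand: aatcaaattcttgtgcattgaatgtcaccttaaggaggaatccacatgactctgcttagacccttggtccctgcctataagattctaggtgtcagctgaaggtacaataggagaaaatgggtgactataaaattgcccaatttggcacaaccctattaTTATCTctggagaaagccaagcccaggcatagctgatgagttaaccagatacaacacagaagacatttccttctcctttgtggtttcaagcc
The motif began 31 bases before the start in Prss34, 46 in Cpa3 and 92 in Fcer1a, and Ms4a2 held it at 3 places. Mcpt8 and Gata2, which also rose, held no such letters in their windows. Cpa3, a carboxypeptidase of mast cells and basophils, had 10.8, 4.33 and 9.65 CPM against 1.35, 1.34 and 1.27 CPM (2.64, SE 0.58, adjusted p 0.017).

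On the neutrophil list 8 of 21 genes rose, and without mouse WT 1 it was 8 as well, 7 of them the same genes. Mpo, the myeloperoxidase of primary granules, had 181.6, 85.2 and 110.8 CPM in Aim2-/- cells and 20.8, 16.4 and 23.8 CPM in WT cells (2.63, SE 0.48, adjusted p 0.00721). Elane, Prtn3 and Ctsg, proteases of the same granules, rose by 2.53, 2.72 and 2.93. S100a8 and S100a9, abundant in mature neutrophils, were not called. S100a9 had 25.1, 1.48 and 1.33 CPM in Aim2-/- mice 1, 2 and 4 and 0, 3.36 and 0.101 CPM in WT mice, so the groups overlapped. On the monocyte and macrophage list 6 of 30 rose, among them Lyz2, lysozyme, with 243.9, 75.1 and 128.1 CPM against 25.9, 34.8 and 16.8 CPM (2.53, SE 0.68, adjusted p 0.0365), and without mouse WT 1 the count was 1. On the dendritic cell list 3 of 18 rose, and on the platelet and megakaryocyte list 4 of 15, and without mouse WT 1 it was 2 on each of these lists. Of all genes 3.24% were called higher with all mice and 4.27% without mouse WT 1. The 1 of 30 monocyte and macrophage genes called without that mouse was thus a share near that of all genes.

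Of 40 erythroid genes tested, 1 rose and none fell, a share near the 3.24% of all genes called higher. The called gene, Mt2, a metallothionein, is not particular to red cells. The median fold change of the list was 1.68, against -0.01 for all genes, and 36 of 40 fitted values were above 0. Hbb-bs, a haemoglobin chain, had 175.1, 10.2 and 102.6 CPM in Aim2-/- mice 1, 2 and 4 and 6.90, 38.9 and 3.96 CPM in WT 1, 3 and 4. Mouse Aim2-/- 2 lay below WT 3, so the groups overlapped (2.53, SE 1.24, adjusted p 0.217). Without mouse Aim2-/- 2 the count on the list was 30, of 2139 calls in all, and without mouse WT 1 it stayed at 1, of 904. Without any 1 of the other 4 mice it was 0, with 30 to 160 calls in all.

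**Figure D3:**
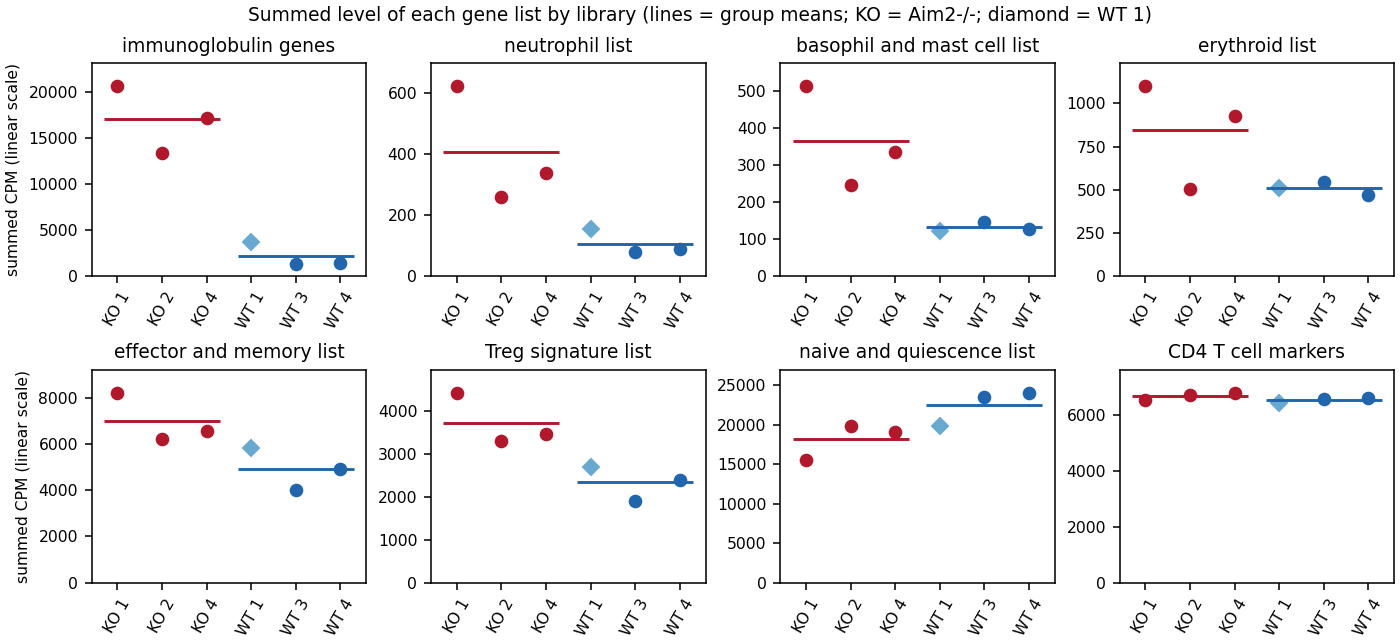
Summed CPM of 8 gene lists (linear vertical axes, starting at 0) in each unstimulated library, with group means as lines. Red circles are Aim2-/- mice, blue symbols WT mice and the diamond the library labelled WT 1; immunoglobulin genes run from 1303 to 20653 CPM, CD4 T cell markers only from 6452 to 6816 CPM.

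T cell genes moved by smaller amounts and in both directions. Over the 9 T cell lists, 24 of 247 tested genes rose and 8 fell, with 3.24% and 1.99% of all genes called, and without mouse WT 1 it was 42 and 9, with 4.27% and 1.51%. The 6 unstimulated libraries alone gave 14 and 2. The calls in either direction numbered 9 of 160 in all without Aim2-/- 1, 67 of 2139 without Aim2-/- 2 and 5 of 125 without Aim2-/- 4. They numbered 1 of 30 without WT 3 and 1 of 37 without WT 4. The summed level of all 247 genes was 78921, 78915 and 78719 CPM in Aim2-/- cells and 74607, 74885 and 80064 CPM in WT cells, and overlapped.

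Some naive and quiescence genes fell in Aim2-/- cells. Of 34 tested, 6 fell and none rose, with 1.99% of all genes called lower, 5 fitted values were above 0, and the list median was -0.40. The summed level was 15513, 19806 and 19025 CPM in Aim2-/- mice and 19815, 23519 and 24043 CPM in WT 1, 3 and 4. The groups met almost without a gap, with WT 1 just above Aim2-/- 2. Tcf7, the transcription factor TCF1 of naive and stem-like T cells, had 1056, 1526 and 1414 CPM against 1727, 2078 and 1997 CPM (-0.54, SE 0.14, adjusted p 0.0303). Il6ra, the IL-6 receptor alpha chain, had 149.1, 238.6 and 187.5 CPM against 322.6, 317.3 and 350.7 CPM (-0.78, SE 0.19, adjusted p 0.0256). Cd55, a complement regulator, Als2cl, Tdrp and Dgka, a diacylglycerol kinase that restrains T cell receptor signals, were the others that fell. Ccr7, which guides naive cells to lymph nodes, overlapped between the groups (adjusted p 0.438). Without mouse WT 1 there were 6 falls, with 1.51% of all genes called lower. Of these 5 were the same genes, and Cd55 was lost (adjusted p 0.0979). The 6 unstimulated libraries alone gave 2 falls and 1 rise, and the fit with marker scores 1 fall.

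Some effector and memory genes rose. Of 46 tested, 10 rose and none fell, with 3.24% of all genes called higher, 43 fitted values were above 0, against 49.2% of all genes, and the median was 0.63. The count was 15 without mouse WT 1, with 4.27% of all genes called higher. It was 6 in the fit of the 6 unstimulated libraries and 3 with marker scores, with 2.02% and 1.06% of all genes. Eomes, a T-box factor of cytotoxic and memory cells that also stands on the CD8 T cell and NK cell list, had 72.8, 94.1 and 99.4 CPM in Aim2-/- cells against 45.4, 28.5 and 19.2 CPM (1.52, SE 0.28, adjusted p 0.00698). Tbx21, the Th1 factor T-bet, had 55.4, 32.006 and 37.95 CPM against 26.2, 17.4 and 20.6 CPM (0.96, SE 0.22, adjusted p 0.0197). Gata3, the Th2 factor, rose by 0.49 (SE 0.12, adjusted p 0.0231). Ccl5, an inflammatory chemokine, had 251.6, 250.3 and 333.6 CPM against 160.3, 118.3 and 129.4 CPM (1.03, SE 0.24, adjusted p 0.0206). Of the CD8 T cell and NK cell list, Eomes was the only 1 of 21 called. The summed effector and memory level was 8249, 6234 and 6584 CPM in Aim2-/- mice and 5828, 4023 and 4944 CPM in WT 1, 3 and 4, with WT 1 the highest WT library.

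Some Treg genes rose. Of the 14 genes that the study named as a Treg signature, 6 rose and none fell, with 3.24% of all genes called higher, and 13 fitted values were above 0, with a median of 0.83. The count was 3 in the fit of the 6 unstimulated libraries and 0 with marker scores of other cell types in the fit. The study had picked these genes from published signatures and not from these libraries. Penk, proenkephalin, had 209.8, 146.8 and 158.6 CPM in Aim2-/- cells against 59.2, 36.1 and 49.95 CPM (1.83, SE 0.33, adjusted p 0.0072). Tnfrsf9, the costimulatory receptor 4-1BB, had 593.9, 358.5 and 403.2 CPM against 228.9, 174 and 229.2 CPM (1.10, SE 0.17, adjusted p 0.0024). Tnfrsf4, the receptor OX40, rose by 0.78, Pdcd1, the inhibitory receptor PD-1, by 1.04, and Il2rb, the IL-2 receptor beta chain, by 0.55. Ebi3, a subunit of IL-35, stood at 2.9 to 7.7 CPM and rose by 1.01. On the second list of Treg genes 4 of 19 rose, namely Cish, Tnfrsf1b, Tigit and Areg. Foxp3 itself had 170.8, 139.9 and 135 CPM against 111.6, 84.98 and 116.9 CPM, so the groups did not overlap, but the difference did not pass the test (0.51, SE 0.25, adjusted p 0.228). Il2ra, Ctla4 and Ikzf2 did not pass either, and the groups overlapped in all 3. Of the 14 and the 19 genes, 5 and 9 rose without mouse WT 1, with 4.27% of all genes called higher.

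The remaining T cell lists held 1 to 3 calls each. Of all genes 3.24% were called higher and 1.99% lower, and without mouse WT 1 it was 4.27% and 1.51%. Of 36 genes of the T cell receptor complex and its proximal signals, Sla, an adaptor that dampens receptor signals, and Ubash3b, a phosphatase with a like role, rose, and the list median was -0.03. Among 150 T cell receptor segments, 1 was called. Of 40 early activation genes Junb, Tnfrsf9 and Ier3 rose, and of 44 PI3K, AKT and mTOR genes Rictor, the core subunit of mTORC2, and Sesn1, a sestrin that restrains mTORC1, fell. Of 20 follicular helper genes, Pdcd1 was called, and 10 were without mouse WT 1, so that this count depended on that mouse. Cxcr5, the receptor that guides follicular helper cells, had 69.3, 58.9 and 59.3 CPM in Aim2-/- cells and 67.9, 37.06 and 41.6 CPM in WT 1, 3 and 4. All 34 proliferation genes had fitted values above 0, with a median of 0.63, but none was called with all mice and 9 were without mouse WT 1. Mki67, the marker Ki-67, had 141.6, 82.1 and 116.5 CPM against 99.8, 37.4 and 48.4 CPM, with WT 1 inside the Aim2-/- range.

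Of 27 glycolysis genes, Aldoa, Tpi1 and Hk3 rose, with 3.24% of all genes called higher, and the summed level ran from 2526 to 2654 CPM in Aim2-/- and from 2223 to 2311 CPM in WT libraries, without overlap. Of 78 nuclear genes of oxidative phosphorylation none was called and the median was 0.12. Of 55 type I interferon-stimulated genes 2 rose, Iigp1 among them, a share near that of all genes. Among 22 inflammasome partners, Il1b and Mefv, which myeloid cells express, rose and no other member was called. Neither was called without mouse WT 1, where 2 other members rose, with 4.27% of all genes called higher. Il1b had 18.2, 5.07 and 8.52 CPM in Aim2-/- cells against 0.25, 3.88 and 1.93 CPM (2.39, SE 0.68, adjusted p 0.0453).

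**Figure D4:**
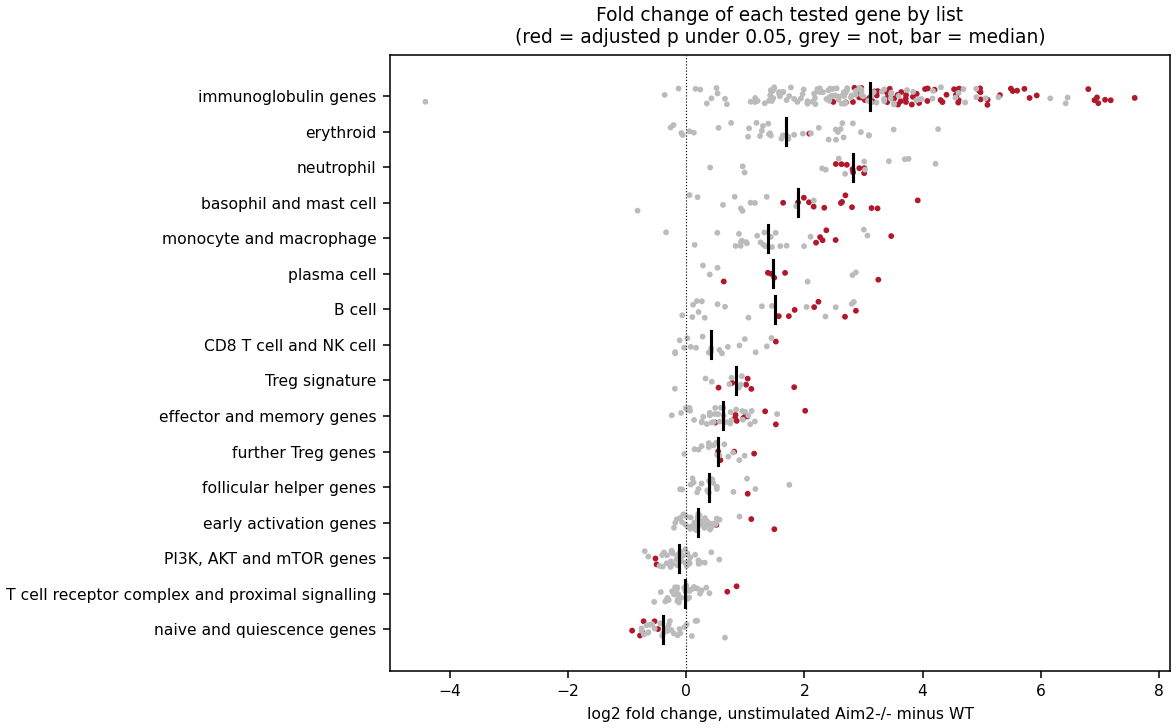
Log2 fold change, Aim2-/- minus WT at 0 h (horizontal axis, linear), of every tested gene in 16 lists, 1 point a gene. Red points have an adjusted p under 0.05, grey points do not, and the bar is the list median, which runs from -0.40 for naive and quiescence genes to 3.11 for immunoglobulin genes; vertical jitter carries no meaning.

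Within the Aim2-/- group the summed level was highest in mouse 1, next in mouse 4 and lowest in mouse 2 for 18 of 28 lists. This order held for the neutrophil, basophil and mast cell, erythroid, effector and memory, and Treg signature lists, and for immunoglobulin genes. It did not hold for the plasma cell list, where mouse 4 was highest, or the second Treg list, where mouse 4 was lowest, and mouse 1 was lowest and mouse 2 highest for the naive list. The B cell sum ranged from 223.3 to 333.3 CPM in Aim2-/- and from 179.01 to 191.2 CPM in WT libraries, the monocyte and macrophage sum from 460.1 to 1029 and from 292.7 to 359.5 CPM. When summary scores of the B cell, myeloid and erythroid lists entered the fit, 277 of all tested genes were called (1.81%), with 1.06% of all genes higher and 0.744% lower. On the T cell lists 7 genes were higher and 2 lower in that fit. Among the T cell list genes called without the scores, Eomes, Tbx21, Sla and Ubash3b were among those also called as higher and Dgka and Sesn1 as lower with the scores. Of the genes called without the scores, none of the 6 on the Treg signature and none of the 4 on the second Treg list stayed called with them, against 3 of 10 on the effector and memory list and 1 of 6 on the naive list. The B cell and myeloid sums did not overlap between the genotypes, so these scores carry part of the genotype difference. A call lost in that fit therefore cannot be assigned to other cell types. What part they had in the T cell differences was not tested.

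Most called genes stood on no list. Among the largest rises were Slamf9, Spon1, Zfyve9, Pcp4l1 and Chac1, all under 10 CPM. Spon1, an extracellular matrix protein, had 66, 57 and 47 counts in Aim2-/- mice and 6, 2 and 3 counts in WT mice. Chac1, an enzyme that degrades glutathione and responds to stress, had 7.75, 5.32 and 5.46 CPM against 1.45, 0.258 and 0.456 CPM (3.08, SE 0.58, adjusted p 0.00767).

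The 8 most abundant rises on no list whose groups did not overlap were Il21r, Stat3, Odc1, Crem, Dgat1, Tob2, Tpm4 and Slc3a2. Stat3, the transcription factor downstream of IL-6 and IL-21, had 1095, 1072 and 990.2 CPM in Aim2-/- cells against 768.9, 712.9 and 773.99 CPM (0.48, SE 0.10, adjusted p 0.0137). Il21r, the IL-21 receptor, had 1140, 988.4 and 1062 CPM against 593.4, 829.1 and 842.5 CPM (0.49, SE 0.12, adjusted p 0.0225). Crem, a cyclic AMP response factor, rose by 0.65, Slc3a2, the heavy chain of amino acid transporters, by 0.54, Odc1, the first enzyme of polyamine synthesis, by 0.39, and Dgat1, an enzyme of triglyceride synthesis, by 0.61. For Il21r, Crem and Dgat1 the library labelled WT 1 was the lowest of all 6, so that it widened the difference. Without mouse WT 1, Stat3, Il21r, Crem and Slc3a2 were still called and Odc1 and Dgat1 were not.

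Falls on no list were small, with a median of -0.46. Xpo1, the nuclear export receptor, had 101.8, 109.9 and 109.6 CPM in Aim2-/- cells against 184.7, 160.5 and 174.8 CPM (-0.69, SE 0.11, adjusted p 0.0024). Ugcg, the enzyme that makes glucosylceramide, had 433.1, 590.05 and 576.4 CPM against 789.3, 881.8 and 849.8 CPM (-0.66, SE 0.10, adjusted p 0.0024). Retreg1, a receptor for autophagy of the endoplasmic reticulum, had 144.3, 172.4 and 160.6 CPM against 221.8, 215.6 and 234.3 CPM (-0.49, SE 0.07, adjusted p 0.0024). These 3 falls were picked because they were called without each mouse in turn, so that trait adds no support. In each the 6 values of the 2 groups stood apart, as they did in 297 of the 305 falls. Vipr1, the receptor for vasoactive intestinal peptide, fell by 1.02 and Rflnb, a filamin-binding protein, by 0.95, with WT 1 the lowest WT library in both. Rasa3, Gramd1a, Arhgef1, Smc4, Atp1b3 and Sf3b1 were the other abundant falls, between -0.26 and -0.51. Of the 296 falls and 352 rises on no list, 153 and 201 were also called without mouse WT 1.

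The place of WT 1 was described for the 904 genes called without mouse WT 1, since its library had no part in choosing them. These genes were chosen for a difference of WT 3 and WT 4 from the Aim2-/- mice. By that choice alone, a left-out WT library would lie part of the way to the Aim2-/- mean, more so where changes are small. The fractions therefore cannot say how far WT 1 sets a class. The place of WT 1 was expressed as the fraction of the way from the mean of WT 3 and WT 4 (at 0) to the Aim2-/- mean (at 1), on log2 values of CPM plus 0.5. Its median over all 904 genes was 0.49, and WT 1 lay nearer to the Aim2-/- mean in 438 of them, or 48.5%. It was 0.14 for the 36 genes on lists of other cell types, where 1 gene lay nearer to the Aim2-/- mean. The fraction was 0.36 for the 99 immunoglobulin genes, with 29 nearer, and 0.50 for the 49 T cell list genes, with 24 nearer. It was 0.52 for the 715 genes on no list, with 381 nearer. For the 27 genes within 10 Mb of Aim2 it was 0.76, and for the 17 of them outside the Ifi200 family 0.69. The values of T cell list genes and of genes on no list were thus near those of all 904 genes, that of genes of other cell types lay below them, and that of genes next to Aim2 above. These fractions describe 1 library and were not tested. Among the 802 genes called with all mice, for which WT 1 helped to decide the call, it lay nearer to the Aim2-/- mean in 75, or 9.35%.

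**Figure D5:**
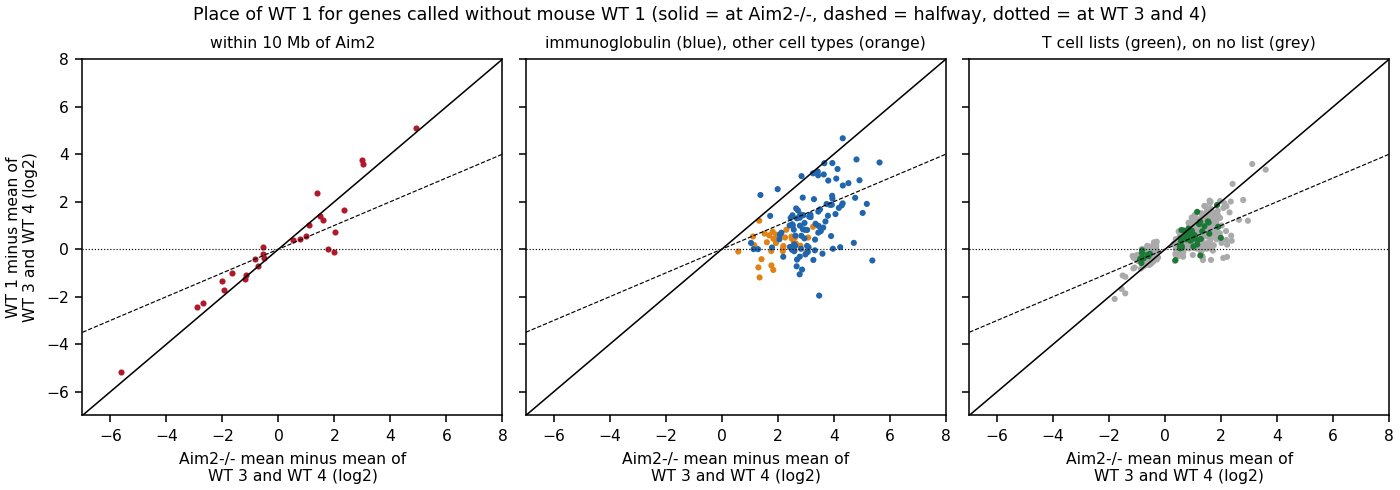
Place of the library labelled WT 1 for genes called without mouse WT 1, 1 point a gene, in log2 of CPM plus 0.5: horizontal, Aim2-/- mean minus the mean of WT 3 and WT 4; vertical, WT 1 minus that mean. Points on the solid line have WT 1 at the Aim2-/- mean, on the dashed line halfway, on the dotted line at WT 3 and WT 4; genes within 10 Mb of Aim2 follow the solid line (median fraction 0.76), genes of other cell types the dotted line (0.14).

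The same mice were compared after stimulation, with libraries from the same animals, so the later comparisons are not independent of this one. Of the 802 genes called at 0 h, 33 were called at 3 h, when 0.294% of all genes were called, 309 at 6 h (15.8%) and 48 at 24 h (0.666%). The 497 rises had median fold changes of 1.64 at 0 h and of 0.96, 1.08 and 0.65 at 3, 6 and 24 h, and the 305 falls of -0.46 at 0 h and of -0.19, -0.15 and -0.10 later, values that describe genes chosen at 0 h. The genotype difference itself changed between 0 h and a later time point in 4 of 15325 genes, Acp5, Arhgap9, Arrb2 and Oard1, all at 6 h, by the interaction test.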

How the data were processed

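RNA of splenic CD4+ T cells was sequenced as stranded mRNA libraries. Per the submitters' notes and the study's methods, STAR was run against GRCm38, and the authors deposited raw read counts per gene, not normalized, for 54446 identifiers, of which 54409 matched the GENCODE M21 annotation used for symbols. The notes also list DESeq2 and edgeR. Whether counting used the strand is not given in the sources used here, so overlapping genes and near-identical copies are uncertain. Nothing in the labels says which mice shared a litter or a day.

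Each of the 6 libraries compared came from 1 mouse. The test was edgeR's (version 4.0.16) two-sided quasi-likelihood F test on all 24 libraries, with 1 mean per genotype and time, TMM factors and filterByExpr (minimum count 10), which kept 15325 genes, and Benjamini-Hochberg adjustment over all of them. Standard errors were derived from the F statistic. The common biological coefficient of variation was 18.6%. The 4 libraries of a mouse entered as separate samples, although their deviations from the group means correlated (r 0.139 to 0.567), so p values can be too small. CPM values use TMM-scaled totals, and 3 counts, the floor of detection, correspond to 0.145 to 0.155 CPM; the floor covers counting error only. The main fit was tested on simulated data, drawn without a correlation between the libraries of a mouse. That test does not bear on this correlation, and its outcome is not reported here.

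Members and gene lists were chosen with earlier results of these data known. Named genes were Aim2 and its family, called list members, called genes within 10 Mb of Aim2 and, in each of 5 classes, up to 6 rises and 6 falls of largest change and, on no list, the 8 most abundant of each, without overlap between groups; further unchanged markers were added after their values were seen, and some genes are not reported here. Alternatives were RLE factors, library totals, DESeq2 (1.42.0), limma-voom (limma 3.58.1) with and without a mouse block, other filters, marker scores, and leaving out each mouse.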

Additional observations from a re-analysis of the deposited data

Results flagged for a closer look

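The difference between genotypes changed between 0 h and 6 h in 4 genes by edgeR's interaction test, as the value at 6 h minus that at 0 h. It was 0.93 for Acp5, an acid phosphatase (adjusted p 0.0441), 0.77 for Arhgap9, a regulator of small GTPases (adjusted p 0.0441), 0.71 for Oard1 (adjusted p 0.0441) and 0.74 for Arrb2, beta-arrestin 2 (adjusted p 0.0135). At 0 h Arrb2 had 144, 160.6 and 147.1 CPM in Aim2-/- mice 1, 2 and 4 and 179.8, 198.2 and 181.1 CPM in WT 1, 3 and 4, and at 6 h 133.2, 111.2 and 114.3 CPM against 89.6, 90.5 and 84.9 CPM. Arrb2 and Arhgap9 thus lay lower in all Aim2-/- libraries at 0 h and higher in all of them at 6 h, and both were called at either time point. No gene passed this test at 3 h or 24 h, where 653 (4.26%) and 1825 (11.9%) of all 15325 genes had an unadjusted p under 0.05, against 2019 (13.2%) at 6 h. Under the alternatives the number of genes with such a change ran from 0 to 907.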

How the results depend on the processing

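Among 151 named genes and 18 alternatives, 1883 values kept direction and side of the threshold, 783 lost the call, 35 gained it and 3 reversed, all for Ifi214 without WT 1: 0.11 without that mouse, 0.0751 without its unstimulated library, and 0.14 in the fit of unstimulated libraries alone, which was chosen after seeing the data.

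The counts of all calls, immunoglobulin, myeloid, erythroid, T cell list genes and time differences, and the percent of calls in which WT 1 lay nearer to Aim2-/-, moved as follows. DESeq2 gave 1557 calls, 10 erythroid, 57 T cell, 419 time differences and 14.2%. limma-voom gave 20 myeloid and 14.5%. A random replicate block by mouse in limma-voom gave 1264 calls, 2 erythroid, 71 T cell, 608 time differences, 20.3% and an Aim2 fold change of -1.39, now called. A replicate block by mouse number gave 3613 calls, 135 immunoglobulin, 82 myeloid, 33 erythroid, 126 T cell, 535 time differences, 21.6% and an Aim2 fold change of -1.18, now called. The numbers 1 and 4 are shared by different animals, whose deviations at 0 h correlated at 0.157 and -0.0429, so they mark only a number. No filter gave 1499 calls, 145 immunoglobulin, 66 myeloid, 32 erythroid, 78 T cell, 267 time differences, 24.4% and an Aim2 fold change of -1.62, now called. A minimum of 1 CPM gave 2 erythroid calls and 8 time differences. RLE factors gave 1 and library totals 18 time differences. With RLE factors 56.5% of calls were higher, with library totals 65.3% and with all mice under TMM 62.0%. The 6 unstimulated libraries gave 317 calls, 16 T cell and 2.21%, and marker scores 277 calls, 43 immunoglobulin, 6 myeloid, 9 T cell, 907 time differences and 26.0%. The cause of these moves was not tested.

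Leaving out each mouse in turn gave 30 to 2139 calls, 13 to 99 immunoglobulin, 3 to 56 myeloid, 0 to 30 erythroid and 1 to 67 T cell calls, 0 to 233 time differences, 0 to 14.05% and an Aim2 fold change of -1.96 to -1.32, and for Ifi214 -0.60 to 0.11. Without only the unstimulated library of WT 1, there were 50 time differences and an Aim2 fold change of -1.999, now called. The unstimulated libraries without WT 1 gave 113 immunoglobulin, 4 erythroid and 62 T cell calls and an Aim2 fold change of -1.94, now called. Calls of Aim2 without WT 1 rest on a mouse left out for its low Aim2. The 6 libraries alone could give no time difference, and fits without WT 1 no place for it. With 3 mice a group, changes under the spread between mice were not detectable.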
